A study of Mus musculus with 83 samples.

Results

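The antioxidant enzymes are 10 genes of the colon count table, *Gpx1*, *Gpx2*, *Gpx3*, *Gpx4*, *Sod1*, *Sod2*, *Sod3*, *Cat*, *Nqo1* and *Hmox1*, found by their symbols among 37764 listed genes. RNA of the proximal colon, enriched for polyA transcripts, was sequenced in 83 male C57BL/6J/Ukj mice, for which the labels name no treatment and no engineered allele. The mice fell into groups of 16 (3 months old), 16 (9 months), 16 (15 months), 17 (24 months) and 18 (28 months). Library preparation was done in 3 batches that each took in 4 to 7 mice of every age. The question put to these data was which of the enzymes changed over adult life and in which interval.

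Reactive oxygen species are removed in steps. Superoxide dismutases turn superoxide into hydrogen peroxide, and catalase and the glutathione peroxidases turn the peroxide into water, the latter at the cost of glutathione. *Nqo1*, which reduces quinones without forming radicals, and *Hmox1*, which breaks down heme, belong to the same defence and are classic targets of the transcription factor NRF2, which binds the antioxidant response element. In the gut, *Gpx2* is the glutathione peroxidase of the epithelium, whereas *Gpx3* and *Sod3* are secreted enzymes.

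All 10 genes were well covered. The libraries held 23026370 to 75838290 counted read pairs (median 35495123), and the members had between 115 counts (*Hmox1* in one mouse at 28 months) and 19749 counts (*Gpx2* in one mouse at 15 months). In the annotation of GRCm38 the glutathione peroxidase genes lie at chr9:108338903-108340343 (*Gpx1*), chr12:76792333-76795554 (*Gpx2*), chr11:54902453-54910377 (*Gpx3*) and chr10:80047166-80056439 (*Gpx4*). The dismutase genes lie at chr16:90220754-90226329 (*Sod1*), chr17:13006846-13040063 (*Sod2*) and chr5:52363791-52371418 (*Sod3*). *Cat* lies at chr2:103453849-103485160, *Nqo1* at chr8:107388225-107403206 and *Hmox1* at chr8:75093621-75100589. All are protein coding. The tissue label was borne out by the markers of colon epithelium, with *Muc2* of goblet cells at a mean of 18447 CPM (counts scaled to library size, defined below) and *Krt8* at 4023 CPM. By their marker scores (the mean log2 CPM of a list of marker genes), 6 libraries stood apart. Replicates 10, 12 and 16 of the 3-month mice and replicates 4 and 6 of the 9-month mice had smooth muscle scores between 6.96 and 7.95, against at least 8.36 in the others, and the 3-month ones and replicate 4 at 9 months were also lowest in enteric neuron score. Replicate 16 at 15 months had the lowest epithelium (9.59, others at least 10.05), endothelium (4.09) and stem cell (3.33) scores. The main results are therefore also given for the 77 other mice, with limits on the scores chosen after they were seen. *Gpx2* overlaps *Fntb* and *Sod1* overlaps *Scaf4*, both on the other strand, and the counting used the strand of the reads.

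RefSeq promoters (GRCm38.p6, 250 bases before to 50 bases after the start site) were given for 8 members, with several start sites for *Gpx4*. They are shown for *Gpx2*, the member with the largest estimated fall from 3 to 28 months, and for *Gpx3*, one of the 2 with the largest rises. *Sod1* and *Nqo1* are also shown, which differ in whether this window matches the antioxidant response element. Capitals mark matches, on either strand, to the letters searched: the antioxidant response element (TGACNNNGC), AP-1 (TGANTCA), the GC box (GGGCGG), the TATA box (TATAAA) and a site of the intestinal CDX factors (CATAAA). These letters were chosen with the sequences in view.
Gpx2 (chr12:76795505-76795804, minus strand): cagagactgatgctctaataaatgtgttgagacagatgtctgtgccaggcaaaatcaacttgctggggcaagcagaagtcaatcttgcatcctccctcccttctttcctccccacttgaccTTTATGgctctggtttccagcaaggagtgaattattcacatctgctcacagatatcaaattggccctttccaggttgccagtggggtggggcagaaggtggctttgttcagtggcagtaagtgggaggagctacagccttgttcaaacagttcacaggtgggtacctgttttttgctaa
Gpx3 (chr11:54902604-54902903, plus strand): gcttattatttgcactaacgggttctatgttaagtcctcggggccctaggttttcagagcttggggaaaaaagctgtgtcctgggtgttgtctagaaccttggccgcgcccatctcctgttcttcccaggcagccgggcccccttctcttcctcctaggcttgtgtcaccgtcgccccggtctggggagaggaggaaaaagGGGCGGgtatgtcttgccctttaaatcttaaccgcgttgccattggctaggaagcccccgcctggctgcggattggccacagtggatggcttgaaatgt
Sod1 (chr16:90220512-90220811, plus strand): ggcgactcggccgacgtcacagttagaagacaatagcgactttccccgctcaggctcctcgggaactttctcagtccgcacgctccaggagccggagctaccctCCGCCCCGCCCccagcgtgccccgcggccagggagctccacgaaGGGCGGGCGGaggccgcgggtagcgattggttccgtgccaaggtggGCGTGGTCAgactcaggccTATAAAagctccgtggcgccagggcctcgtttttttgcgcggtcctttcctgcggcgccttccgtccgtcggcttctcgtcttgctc
Nqo1 (chr8:107403156-107403455, minus strand): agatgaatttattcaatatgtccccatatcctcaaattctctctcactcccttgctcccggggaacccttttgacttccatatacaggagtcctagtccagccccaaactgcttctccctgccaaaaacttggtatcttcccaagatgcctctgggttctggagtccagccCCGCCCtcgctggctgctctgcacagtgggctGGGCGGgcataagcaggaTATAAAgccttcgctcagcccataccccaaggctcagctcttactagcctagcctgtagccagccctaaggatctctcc

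Among the members with a promoter, *Sod1* alone matched the antioxidant response element, 56 bases before its start site on the opposite strand, and it also held a TATA box and 4 overlapping or neighbouring GC boxes. *Nqo1* held a TATA box 29 bases before the start and 2 GC boxes, and *Gpx3* held 1 GC box. *Gpx2* was the only one of the 8 with a match to CATAAA, 129 bases before the start on the opposite strand, and held none of the other letters. Over all 32851 promoters of this length, 12.4% matched the antioxidant response element, 7.81% AP-1, 35.7% the GC box, 13.6% the TATA box and 11.9% CATAAA. A match describes the letters in this window and not a bound site. Sequence outside the window was not searched, so an element there would be missed.

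Levels of different genes were compared per length as TPM, the counts of a gene divided by its merged exon length in an earlier annotation release than that of the authors' reference, and scaled to the same sum in every library. *Gpx1*, the ubiquitous cytosolic peroxidase, was the most abundant member at a mean of 459 TPM (SD 39.3, n = 83), above 99.3% of all genes. It was followed by *Gpx2* at 295 TPM (SD 69.5), *Gpx4* at 189 TPM (SD 15.0) and *Sod1* at 147 TPM (SD 12.5). *Gpx1* lay above *Gpx2* in 81 of 83 mice and *Gpx2* above *Gpx4* in 77. *Nqo1* at 132 TPM (SD 21.2) and *Gpx3* at 128 TPM (SD 22.0) were neighbours whose order held in only 46 of 83 mice, so that their levels did not differ beyond the spread between mice. The order of their means turned with age, with *Nqo1* at 126 and *Gpx3* at 114 TPM at 3 months and *Nqo1* at 131 and *Gpx3* at 138 TPM at 24 months. *Cat* followed at 96.9 TPM (SD 11.05), then *Sod2* at 27.7 TPM (SD 1.34), *Sod3* at 17.7 TPM (SD 4.04) and *Hmox1* at 13.6 TPM (SD 5.41). At 9 months the mean of *Hmox1* (17.3 TPM) lay above that of *Sod3* (15.7 TPM). *Sod2* is annotated with 10008 bases of merged exons, the most of the 10 genes, which lowers its TPM relative to its count.

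The members differed in how much they varied between mice of one age, given below as the coefficient of variation of CPM, the counts scaled to the library size corrected by its TMM factor. *Sod2*, the mitochondrial manganese enzyme, was the steadiest from 9 months on, with 3.85% to 6.86% over the 5 ages. At 3 months *Sod2* was level with *Gpx4* (6.84%). *Gpx2* ranged from 16.1% to 29.7%. *Hmox1* varied by 38.5%, 46.2% and 38.0% at 3, 9 and 15 months but by 14.6% and 22.3% at 24 and 28 months. One mouse at 9 months (replicate 10) had the highest value of all 83 mice for *Gpx1* (319.5 CPM), *Gpx4* (155 CPM), *Sod1* (277 CPM) and *Sod2* (110.5 CPM) at once.

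**Figure D1:**
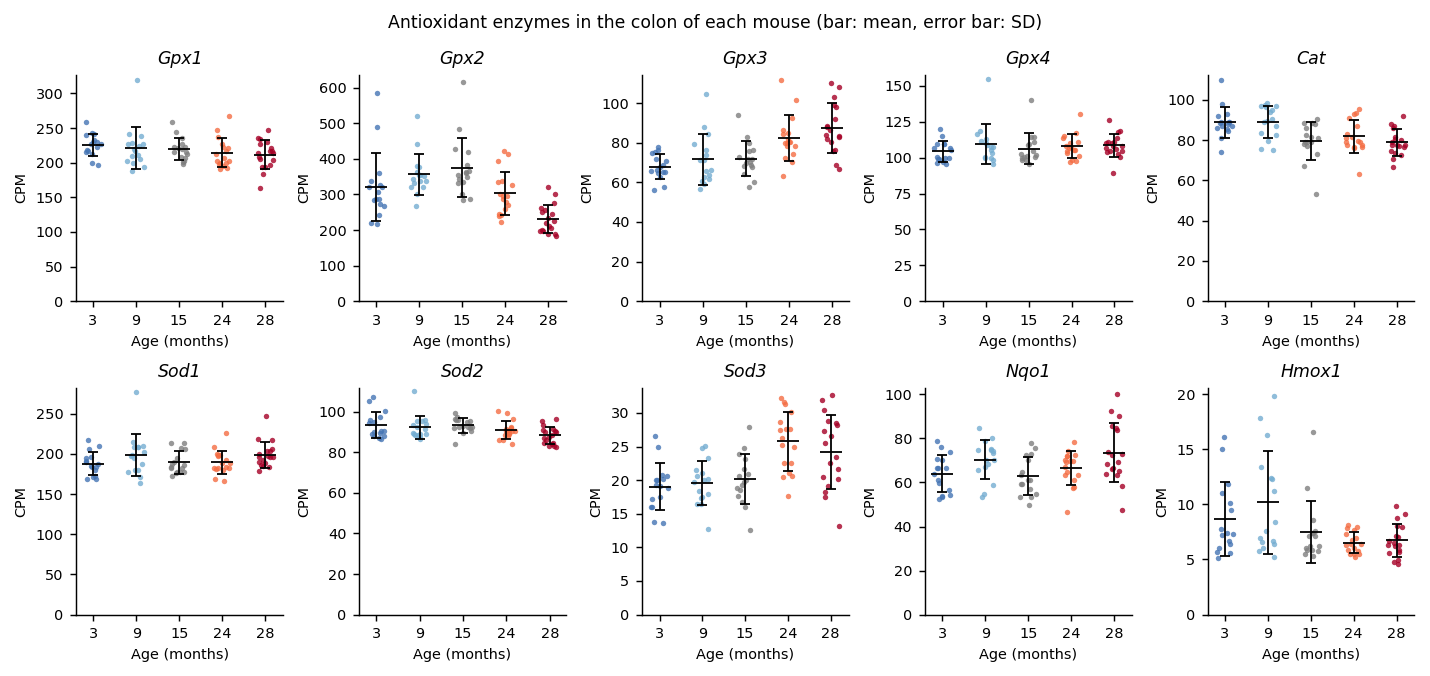
CPM (counts scaled to library size) of the 10 antioxidant enzymes in each mouse by age in months, with the mean (bar) and SD (error bar) of 16, 16, 16, 17 and 18 mice. *Gpx2* is highest on average at 15 months and lowest at 28 months, *Gpx3* and *Sod3* lie higher at 24 and 28 months, and the high *Hmox1* values are found at 3, 9 and 15 months.

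Between 3 and 28 months, 9 of the 10 members passed the threshold of an adjusted p below 0.1 in edgeR's quasi-likelihood F-test, 4 higher and 5 lower with age. *Gpx3*, *Sod3*, *Nqo1* and *Sod1* were higher, whereas *Gpx2*, *Hmox1*, *Cat*, *Gpx1* and *Sod2* were lower. *Gpx4* was not called. In this comparison 49.4% of all 18325 genes tested were called, 23.5% higher and 25.9% lower, which is the background for these counts. The median log2 fold change of the members was -0.01, and that of all genes tested was -0.01. The changes were small, running from a fold of 0.719 for *Gpx2* to 1.29 for *Gpx3*, and the mice of the 2 ages overlapped for every member. Without the 6 libraries that stood apart 7 members were called, *Gpx1* and *Sod2* being lost, beside 8236 of 18381 genes in that fit, and the changes were -0.50 for *Gpx2*, 0.34 for *Gpx3*, 0.28 for *Sod3*, 0.15 for *Nqo1*, 0.10 for *Sod1*, -0.16 for *Cat* and -0.45 for *Hmox1*. In bulk colon, fewer cells of a type and less RNA per cell cannot be told apart.

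*Gpx2* showed the largest fall in the main fit. The change of *Hmox1* (-0.36, SE 0.15) differed from that of *Gpx2* by less than the standard error of *Hmox1*, and in batch 1 *Hmox1* fell further (-0.51). At 3 months *Gpx2* lay between 217 and 585 CPM with a median of 297, and at 28 months between 182 and 321 CPM with a median of 222. Of the 18 mice at 28 months, 16 lay below the 3-month median and 8 below the lowest mouse of that age. The log2 fold change was -0.48 (SE 0.10, edgeR adjusted p = 4.9e-05), and it was -0.46, -0.42 and -0.47 within the 3 library batches. The path was not a straight line. The mean was 320.4 CPM at 3 months (SD 95.2), and it went to 357 (SD 57.5) and 375 (SD 82.3) at the next ages before it came to 304 (SD 60.7) and, at 28 months, 231 CPM (SD 40.1). The difference from 3 to 9 months was not called (log2 fold change 0.15, SE 0.10, edgeR adjusted p = 0.438). *Gpx2* then fell from 15 to 24 months by 0.31 on the log2 scale (SE 0.10, edgeR adjusted p = 0.0365) and from 24 to 28 months by a further 0.40 (SE 0.10, edgeR adjusted p = 0.00554).

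*Gpx2* was the only member whose age course departed from a straight line (edgeR adjusted p = 0.000252), where 16.2% of all genes did, and *Nqo1* stood just outside at an adjusted p of 0.102 in the same edgeR test. From its 15-month level *Gpx2* was lower at 28 months by 0.71 on the log2 scale (SE 0.10, edgeR adjusted p = 2.2e-08), in a comparison in which 42.4% of genes were called. Of the 18 mice at 28 months, 16 also lay below the 24-month median.

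The glutathione peroxidases did not move together. *Gpx3*, the secreted plasma form, rose by as much as *Sod3*, from which it differed by less than the standard error. It lay between 56.1 and 77.8 CPM with a median of 66.9 at 3 months and between 66.8 and 110.0 CPM with a median of 85.3 at 28 months. At 28 months 17 of 18 mice lay above the 3-month median and 14 above the highest mouse of that age. The log2 fold change was 0.36 (SE 0.06, edgeR adjusted p = 4.26e-06), with 0.24, 0.49 and 0.41 within the batches. The means went from 67.9 CPM at 3 months (SD 6.32) through 71.6 (SD 12.7), 72.0 (SD 8.71) and 82.4 (SD 11.4) to 87.4 CPM at 28 months (SD 12.4), and of the steps between neighbouring ages the one from 15 to 24 months was called (0.20, SE 0.07, edgeR adjusted p = 0.0467).

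*Gpx1* and *Gpx4*, the cytosolic and the membrane-protecting peroxidase, changed least among the 4 glutathione peroxidases. *Gpx1* lay between 197 and 259 CPM with a median of 227 at 3 months and between 163 and 247 CPM with a median of 214 at 28 months. Its log2 fold change of -0.10 (SE 0.05) was called at an edgeR adjusted p of 0.087, but the call was kept in only 2 of 10 alternative analyses and after leaving out a mouse in 18 of 34 cases. *Gpx4*, whose loss leads to death by lipid peroxidation, lay between 95.6 and 120.1 CPM with a median of 103 at 3 months and between 89.1 and 126 CPM with a median of 108 at 28 months. Its log2 fold change of 0.05 was not called (SE 0.04, edgeR adjusted p = 0.314), and the 95% interval of the change ran from -0.03 to 0.13. *Gpx1*, *Gpx4* and *Sod1* were not called in the test for a difference at any age, in which 7 members and 54.9% of all genes were.

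Of the superoxide dismutases, *Sod3*, which is secreted and held at the cell surface and matrix, changed most. It lay between 13.7 and 26.6 CPM with a median of 19.2 at 3 months and between 13.1 and 32.7 CPM with a median of 24.5 at 28 months. At 28 months 14 of 18 mice lay above the 3-month median, and 1 mouse lay below every mouse of 3 months. The log2 fold change was 0.36 (SE 0.09, edgeR adjusted p = 0.00134), with 0.20, 0.43 and 0.51 within the batches. The means were 19.0, 19.6 and 20.2 CPM up to 15 months (SD 3.48, 3.26 and 3.71) and 25.8 and 24.2 CPM at 24 and 28 months (SD 4.40 and 5.49). The step from 15 to 24 months was the largest estimate of any member in that interval (0.37, SE 0.09, edgeR adjusted p = 0.0089). In size it differed from the change of *Gpx2* (-0.31, SE 0.10) by less than the standard error, and in batch 1 *Gpx2* changed more (-0.37 against 0.32). At 24 months 16 of 17 mice lay above the 15-month median of *Sod3*. The test for departure from a straight line was not passed by *Sod3* (edgeR adjusted p = 0.306).

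*Sod1*, the copper and zinc enzyme of the cytosol, and *Sod2* moved by less and in opposite directions. *Sod1* lay between 168 and 217 CPM with a median of 186 at 3 months and between 178 and 247 CPM with a median of 197 at 28 months. *Sod1* was not called in the test for a difference at any age (edgeR adjusted p = 0.134). Its log2 fold change from 3 to 28 months was 0.08 (SE 0.04, edgeR adjusted p = 0.0764), a call kept in 7 of 10 alternative analyses and in 27 of 34 fits without 1 mouse. *Sod2* lay between 86.8 and 107 CPM with a median of 90.6 at 3 months and between 82.9 and 96.3 CPM with a median of 88.0 at 28 months. It fell by 0.08 on the log2 scale (SE 0.03, edgeR adjusted p = 0.0103), with 7 of 18 mice at 28 months below every mouse of 3 months, but without the 6 libraries that stood apart the change was -0.05 and not called (edgeR adjusted p = 0.125). *Ccs*, the chaperone that loads copper into Sod1, also rose (0.11, SE 0.04, edgeR adjusted p = 0.0162).

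*Cat*, the peroxisomal catalase, lay between 73.9 and 109.8 CPM with a median of 88.3 at 3 months and between 66.6 and 92.1 CPM with a median of 77.5 at 28 months. Of 18 mice at 28 months, 17 lay below the 3-month median. It fell by 0.16 on the log2 scale (SE 0.05, edgeR adjusted p = 0.00309), and the change was -0.15, -0.19 and -0.11 within the batches. The means were 88.8, 89.2, 79.5, 81.8 and 78.8 CPM at the 5 ages (SD 7.62, 7.91, 9.39, 8.12 and 6.495), and *Cat* was thus near its 28-month mean from 15 months on. At 15 against 3 months the log2 change of *Cat* was -0.16 (SE 0.05, edgeR adjusted p = 0.0275), and it was the one member called there, beside 7.75% of all genes. The change from 9 to 15 months of -0.17 missed the threshold (SE 0.05, edgeR adjusted p = 0.114), in the interval with the fewest calls, where 0.431% of all genes passed. One 15-month mouse (replicate 16) had the lowest *Cat* value of all, 53.1 CPM, in the library that also stood apart in its epithelium score. The comparison of 15 with 3 months was not fitted without this library.

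*Nqo1* lay between 52.6 and 78.9 CPM with a median of 65.2 at 3 months and between 47.5 and 100.3 CPM with a median of 70.9 at 28 months. It rose by 0.20 on the log2 scale (SE 0.07, edgeR adjusted p = 0.0164), with 0.15, 0.07 and 0.42 within the batches. At 28 months 6 of 18 mice lay above every mouse of 3 months and 1 lay below all of them. The means went up and down, from 64.1 CPM at 3 months (SD 8.51) to 70.3 (SD 8.78), 62.9 (SD 8.66), 66.5 (SD 7.71) and 73.6 CPM at 28 months (SD 13.4), and no step between neighbouring ages was called.

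*Hmox1*, the inducible heme oxygenase, had a few high values at the younger ages. It lay between 5.09 and 16.1 CPM with a median of 7.37 at 3 months, between 5.22 and 19.8 CPM with a median of 8.01 at 9 months and between 5.33 and 16.5 CPM with a median of 6.67 at 15 months. At 24 months it lay between 5.25 and 8.15 CPM with a median of 6.37, and at 28 months between 4.56 and 9.86 CPM with a median of 6.38. The lower ends were thus close to each other at all ages. Above the highest value of the older mice (9.86 CPM) lay 5 of 16 mice at 3 months, 7 of 16 at 9 months and 2 of 16 at 15 months, and the 3-month and 9-month mice among them came from all 3 batches. The mean fell from 3 to 28 months by 0.36 on the log2 scale (SE 0.15, edgeR adjusted p = 0.051), with -0.51, -0.36 and -0.14 within the batches. The call was lost without replicate 1 (adjusted p = 0.13) and without replicate 2 (adjusted p = 0.136) of the 3-month mice in the edgeR fit. Against 9 months, where 40.0% of all genes were called, *Hmox1* was lower at 28 months by 0.60 (SE 0.15, edgeR adjusted p = 0.00165).

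Between neighbouring ages, members were called only after 15 months, and *Cat* was lower at 15 than at 3 months. From 3 to 9 months none of the 10 was called in the edgeR test, in which 8.69% of all genes were. At an unadjusted edgeR p below 0.05 there was 1 member (*Sod1*), beside 3576 of 18325 genes. DESeq2 called none, beside 1667 of 37741 genes. From 9 to 15 months none was called either, beside 0.431% of all genes. At an unadjusted edgeR p below 0.05 there were 3 members (*Cat*, *Hmox1* and *Nqo1*), beside 1683 of 18325 genes. DESeq2 called 1 member, beside 117 of 37741 genes. From 15 to 24 months 3 were called, *Sod3* and *Gpx3* higher and *Gpx2* lower, beside 13.5% of all genes, 6.28% higher and 7.24% lower. From 24 to 28 months *Gpx2* alone was called, beside 11.7% of all genes. The within-batch changes from 15 to 24 months were -0.37, -0.26 and -0.28 for *Gpx2*, 0.31, 0.15 and 0.16 for *Gpx3* and 0.32, 0.29 and 0.55 for *Sod3*. Without the 6 libraries that stood apart the same 3 genes were called from 15 to 24 months, with -0.33, 0.19 and 0.33.

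**Figure D2:**
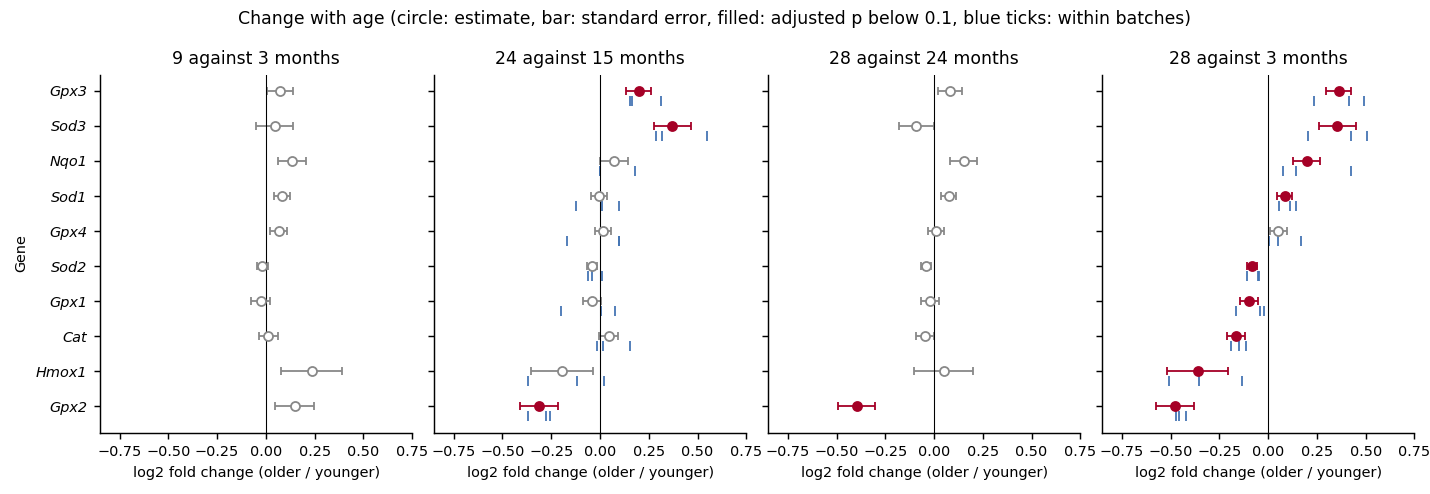
Log2 fold change of the antioxidant enzymes (older over younger mice) in 4 comparisons of ages, with the standard error as a bar, filled circles for an edgeR adjusted p below 0.1 and blue ticks for the change within each of the 3 library batches, drawn for 24 against 15 and 28 against 3 months. No circle is filled at 9 against 3 months, *Gpx3*, *Sod3* and *Gpx2* are filled at 24 against 15 months, *Gpx2* alone at 28 against 24 months and all but *Gpx4* at 28 against 3 months.

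Markers of the cell types in the colon moved over the same interval. The scores were compared between 3 and 28 months by two-sided permutation tests with 100000 resamples over mice and adjusted over 15 lists, of which 7 passed. No marker was at 0 in all mice. The goblet cell score was lower at 28 months by 0.32 (adjusted permutation p = 0.0003), with the 5 markers summing to between 27684 and 37292.5 CPM at 3 months and between 22450 and 32593 CPM at 28 months. The epithelium score was lower by 0.10 (adjusted permutation p = 0.032), but the median over its markers was lower by only 0.04 and did not pass (adjusted permutation p = 0.639). With that summary the stem cell score (-0.13) and the B and plasma cell score (-0.75) passed, each at an adjusted permutation p of 0.0317. The endothelium score was higher by 0.20 (adjusted permutation p = 0.001), with 5 markers summing to between 147 and 181 CPM at 3 months and 145 and 220 CPM at 28 months. The macrophage score was higher by 0.25 (adjusted permutation p = 0.07), with 6 markers summing to between 132 and 205 CPM at 3 months and 126 and 306 CPM at 28 months. The neutrophil score was higher by 0.87 (adjusted permutation p = 0.0003), with its markers summing to between 2.31 and 5.59 CPM at 3 months and 2.25 and 6.99 CPM at 28 months. The enterocyte score was lower by 0.11 (adjusted permutation p = 0.0602) and the erythrocyte score higher by 1.03 (adjusted permutation p = 0.00337). The fibroblast score did not pass (0.04 higher, adjusted permutation p = 0.732), and the median over its markers was lower by 0.19, so that its direction depends on how the markers are summarised. Between 15 and 24 months, the interval of the *Sod3*, *Gpx3* and *Gpx2* calls, the goblet cell score was lower by 0.26 (adjusted permutation p = 0.0151) and the endothelium, macrophage, neutrophil and enteric glia scores were higher by 0.23, 0.22, 0.56 and 0.21 (adjusted permutation p = 0.0006, 0.0163, 0.0151 and 0.0151). Without the 6 libraries that stood apart the goblet cell, endothelium and macrophage scores differed by -0.29, 0.18 and 0.20 between 3 and 28 months and the epithelium score by -0.06. The smooth muscle score went from 0.36 to -0.03, the enteric neuron score from -0.07 to -0.38 and the fibroblast score from 0.04 to -0.07.

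Across the 83 mice, with age and batch removed, *Sod3* followed the stroma more closely than any other member. Over 150 pairs of a member and a list, the highest correlation was that of *Sod3* with the fibroblast score (Pearson's r = 0.89, Spearman's rho = 0.91, permutation p = 1e-05 for both, the smallest that the permutations can give, r = 0.88 without the 2 mice farthest from the median). Within the 3 batches it was 0.90, 0.93 and 0.86. *Sod3* also followed the macrophage score (r = 0.81, rho = 0.82, permutation p = 1e-05 for both, r = 0.80 without 2 mice) and the endothelium score (r = 0.69, rho = 0.66, permutation p = 1e-05 for both, r = 0.64 without 2 mice), and less closely the smooth muscle score (r = 0.53, rho = 0.59, permutation p = 1e-05 for both, r = 0.56 without 2 mice). Over the 77 mice without the libraries that stood apart r was 0.89, 0.82, 0.72 and 0.48 for these 4 scores. *Gpx3* did so less closely, with r = 0.59 and rho = 0.62 for macrophages and r = 0.57 and rho = 0.64 for fibroblasts (permutation p = 1e-05 for each), and r = 0.37 and rho = 0.36 for smooth muscle (Benjamini-Hochberg adjusted permutation p = 0.00842 for r). *Gpx2* followed the neutrophil score (r = 0.50, rho = 0.41, r = 0.37 without 2 mice), the macrophage score (r = 0.46, rho = 0.44) and the goblet cell score (r = 0.38, rho = 0.42, Benjamini-Hochberg adjusted permutation p = 0.0049). The correlation of *Gpx2* with the goblet cell score was 0.56, 0.57 and 0.13 within the batches. *Gpx2* was also correlated with the epithelium score (r = 0.37, rho = 0.42, r = 0.36 without 2 mice, Benjamini-Hochberg adjusted permutation p = 0.00812 for r). *Nqo1* was correlated negatively with the goblet cell score (r = -0.34, rho = -0.35, r = -0.41 without 2 mice, Benjamini-Hochberg adjusted permutation p = 0.0121 for r), with -0.16, -0.30 and -0.54 within the batches. Of all 150 pairs, 35 had an adjusted permutation p below 0.1. Among them, *Sod3* was also correlated with scores beyond those above. These were the adipocyte (r = 0.54), goblet cell (r = 0.42), enteric neuron (r = 0.38), neutrophil (r = 0.37), enteric glia (r = 0.35) and epithelium (r = 0.27) scores. Over the 77 mice r of *Sod3* with the goblet cell score was 0.49. All values of a mouse come from 1 library, so shared depth and composition enter each of them.

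**Figure D3:**
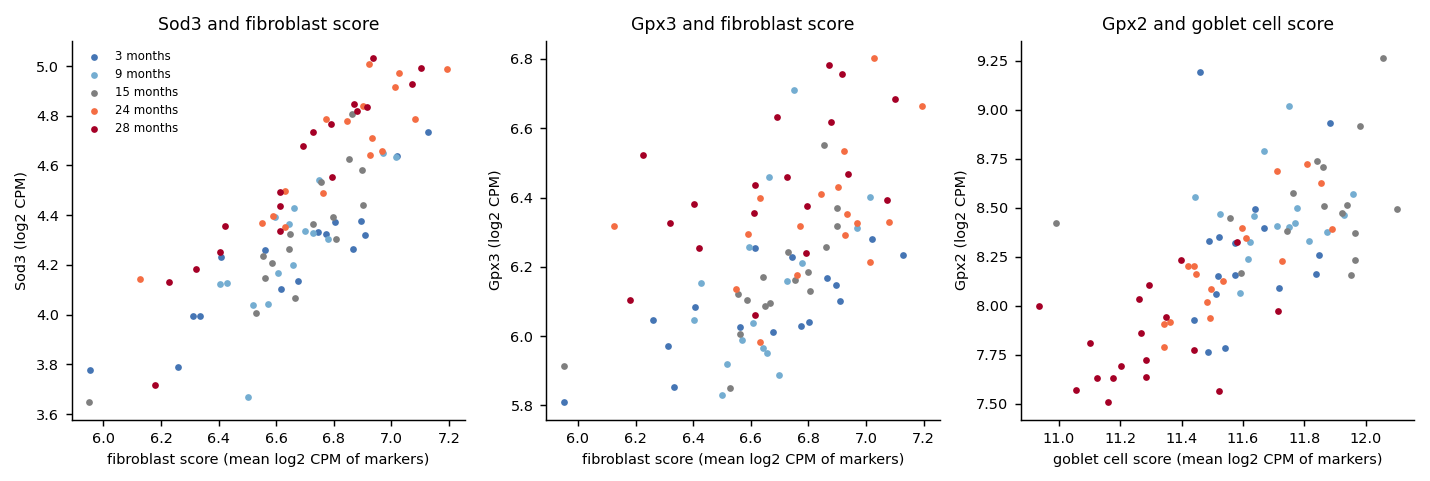
Log2 CPM of *Sod3* and *Gpx3* against the fibroblast score and of *Gpx2* against the goblet cell score (mean log2 CPM of the markers), one point per mouse coloured by age. At the same fibroblast score most mice of 24 and 28 months lie above those of 3, 9 and 15 months for *Sod3*, and for *Gpx2* the 28-month mice have the lowest mean on both axes, with single mice among those of other ages.

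With the fibroblast, macrophage, endothelium and goblet cell scores as covariates, an analysis chosen after seeing these values, 4 members remained called between 3 and 28 months. *Sod3* was higher by 0.22 (edgeR adjusted p = 0.00612), *Gpx3* by 0.20 (edgeR adjusted p = 0.0545), and *Cat* was lower by 0.24 (edgeR adjusted p = 0.00626) and *Hmox1* by 0.55 (edgeR adjusted p = 0.08). The change of *Gpx2* was -0.18 in this fit and was no longer called (edgeR adjusted p = 0.304), and *Nqo1* at 0.17 was not called either (edgeR adjusted p = 0.209). Between 15 and 24 months none of the 3 calls was kept, with changes of -0.05 for *Gpx2*, 0.03 for *Gpx3* and 0.18 for *Sod3*. Several of the scores themselves differ with age, and over all 18325 genes the calls in the same fit went from 9046 to 4527 between 3 and 28 months and from 2476 to 74 between 15 and 24 months.

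Among the members themselves, 20 of 45 pairs were correlated across mice at an adjusted permutation p below 0.1, 19 of them positively. The closest pair was *Gpx4* with *Sod1* (r = 0.76, rho = 0.72, r = 0.72 without 2 mice, permutation p = 1e-05 for both), with 0.68, 0.69 and 0.85 within the batches. It was followed by *Gpx1* with *Gpx4* (r = 0.74, rho = 0.58, r = 0.65 without 2 mice, permutation p = 1e-05 for both) and by the secreted pair *Gpx3* and *Sod3* (r = 0.67, rho = 0.67, r = 0.66 without 2 mice, permutation p = 1e-05 for both). The only negative pair was *Gpx2* with *Cat* (r = -0.33, rho = -0.32, r = -0.25 without 2 mice, adjusted permutation p = 0.0096). *Nqo1* and *Hmox1*, the classic NRF2 targets, were weakly correlated (r = 0.26, rho = 0.22, adjusted permutation p = 0.0533 for r and 0.118 for rho).

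**Figure D4:**
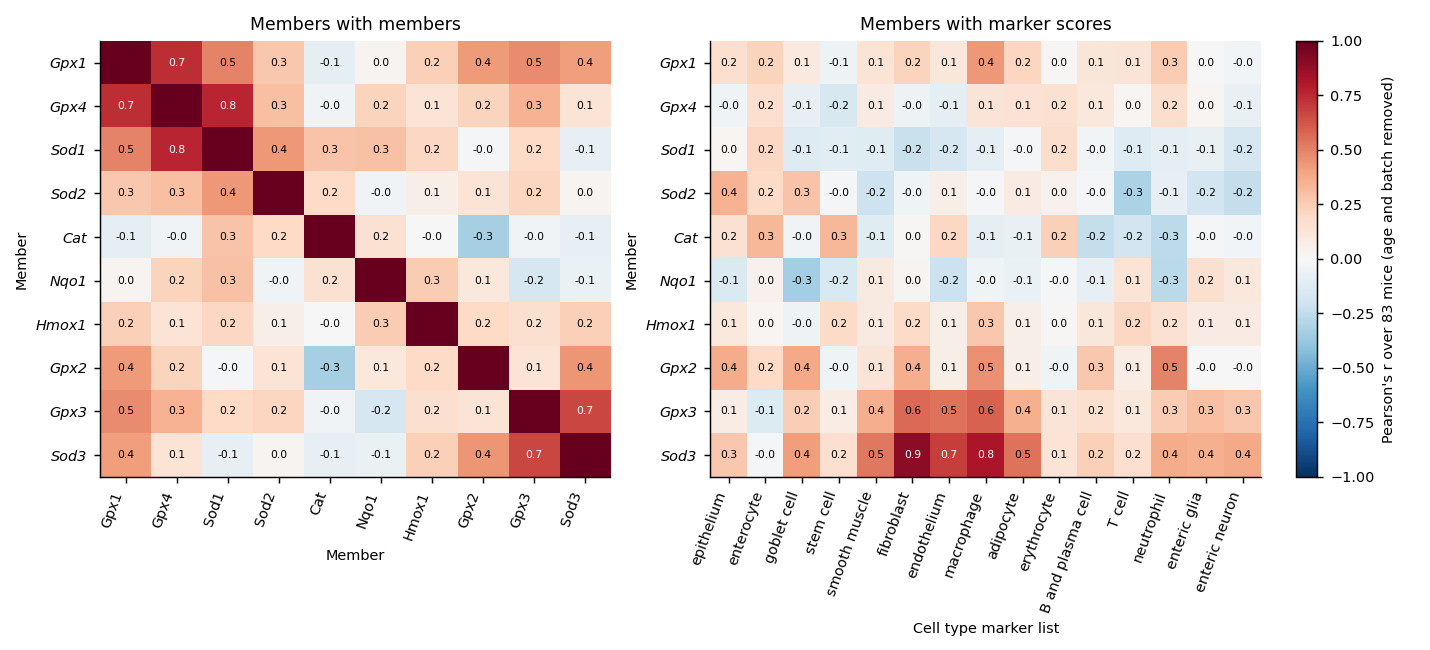
Pearson's r over 83 mice, with age and library batch removed, between the members (left) and between the members and the scores of 15 cell type marker lists (right). The strongest cells on the left are those of *Gpx4* with *Sod1* (0.76), *Gpx1* with *Gpx4* (0.74) and *Gpx3* with *Sod3* (0.67), *Gpx1* is also correlated with *Gpx3* (0.47) and *Sod3* (0.42), and the strongest cells on the right are those of *Sod3* with fibroblasts (0.89) and macrophages (0.81).

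The genes around the members were read from 9 lists, of which 81 genes were matched in the count table and 78 passed the filter on low counts. *Gpx5* of these lists was not matched and is not analysed here. Between 3 and 28 months 42 of the 78 were called, 21 higher and 21 lower, with a median log2 fold change of -0.02, beside the 49.4% called over all genes.

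Of the 16 genes of the thioredoxin and peroxiredoxin list 9 were called lower and 2 higher, where 25.9% of all genes were called lower and 23.5% higher, and the median was -0.09. *Prdx6*, a peroxiredoxin that reduces phospholipid peroxides, lay between 705 and 1232 CPM (median 870.2) at 3 months and between 478 and 857 CPM (median 683) at 28 months, and fell by 0.44 (SE 0.08, edgeR adjusted p = 9.05e-06). *Srxn1*, which repairs overoxidised peroxiredoxins, fell by 0.20 (SE 0.04, edgeR adjusted p = 5.08e-05), and *Prdx1* fell by 0.20 (SE 0.05, edgeR adjusted p = 0.000472). *Txnrd3* and *Prdx4* rose by 0.29 and 0.18 (SE 0.07 and 0.06, edgeR adjusted p = 0.000246 and 0.014). Of 8 genes of glutathione synthesis and recycling 4 were higher, 2 lower and 2 not called, with a median of 0.05, and the difference between the lists was not tested. *Gclc*, the catalytic subunit of the rate-limiting enzyme of glutathione synthesis, lay between 85.2 and 122 CPM (median 102) at 3 months and between 94.8 and 189.7 CPM (median 129.9) at 28 months. It rose by 0.38 (SE 0.06, edgeR adjusted p = 1.52e-06), beside *Gss* at 0.16 (SE 0.04, edgeR adjusted p = 0.000851) and *Oplah* at 0.23 (SE 0.06, edgeR adjusted p = 0.000868). *Ggt1*, which degrades extracellular glutathione, fell by 0.76 (SE 0.21, edgeR adjusted p = 0.00271), and *Ggct* fell by 0.21 (SE 0.06, edgeR adjusted p = 0.002). *Gsr*, which regenerates glutathione, was at -0.01 (SE 0.04, edgeR adjusted p = 0.909).

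The 2 other glutathione peroxidases tested, *Gpx7* and *Gpx8* of the endoplasmic reticulum, fell by 0.57 and 0.25 (SE 0.09 and 0.09, edgeR adjusted p = 2.56e-07 and 0.0205). Of 9 genes of selenoprotein synthesis and selenium supply, which the selenium enzymes Gpx1 to Gpx4 need, only *Sephs2* (0.27 higher, SE 0.05, edgeR adjusted p = 2.26e-06) and *Sepsecs* (0.08 lower, SE 0.03, edgeR adjusted p = 0.0353) were called. *Selenop*, which carries selenium in plasma, was at 0.00 (SE 0.07, edgeR adjusted p = 0.963). Of 9 genes of NRF2 and its regulators 4 were called. *Nfe2l2*, which encodes NRF2, was at -0.09 (SE 0.05, edgeR adjusted p = 0.156) and its inhibitor *Keap1* at 0.05 (SE 0.04, edgeR adjusted p = 0.26), whereas *Maff*, *Bach1* and *Mafk* rose by 0.40, 0.10 and 0.10 (SE 0.11, 0.05 and 0.04, edgeR adjusted p = 0.00225, 0.0647 and 0.0553) and *Nfe2l1* fell by 0.13 (SE 0.03, edgeR adjusted p = 0.000232).

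Of 13 tested sources of superoxide and peroxide, 4 were higher and 4 lower. *Nox1*, the NADPH oxidase of the colon epithelium, lay between 13.6 and 46.4 CPM (median 29.1) at 3 months and between 6.58 and 37.7 CPM (median 16.8) at 28 months, and fell by 0.66 (SE 0.16, edgeR adjusted p = 0.000458). *Noxo1*, its organiser, fell by 0.10 (SE 0.04, edgeR adjusted p = 0.037). *Cybb*, the oxidase of phagocytes, rose by 0.51 (SE 0.10, edgeR adjusted p = 3.19e-05), beside *Xdh* at 0.22 (SE 0.08, edgeR adjusted p = 0.0224). Of 9 tested genes of heme and iron handling, the neighbours of *Hmox1*, 3 were higher and 1 lower. *Cd163*, the macrophage receptor for hemoglobin, rose by 0.81 (SE 0.14, edgeR adjusted p = 1.17e-06), *Fech* by 0.19 (SE 0.03, edgeR adjusted p = 1.15e-05) and *Blvra* by 0.10 (SE 0.05, edgeR adjusted p = 0.0766), and *Slc40a1*, the iron exporter, fell by 0.25 (SE 0.12, edgeR adjusted p = 0.098).

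Of 8 genes that supply NADPH, which glutathione and thioredoxin reductases consume, 3 were higher and 1 lower. *G6pdx* and *Idh1* rose by 0.12 and 0.11 (SE 0.05 and 0.04, edgeR adjusted p = 0.0243 and 0.0126) and *Taldo1* fell by 0.14 (SE 0.04, edgeR adjusted p = 0.00455). Of 4 copper chaperones and metallothioneins *Ccs* alone was called.

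**Figure D5:**
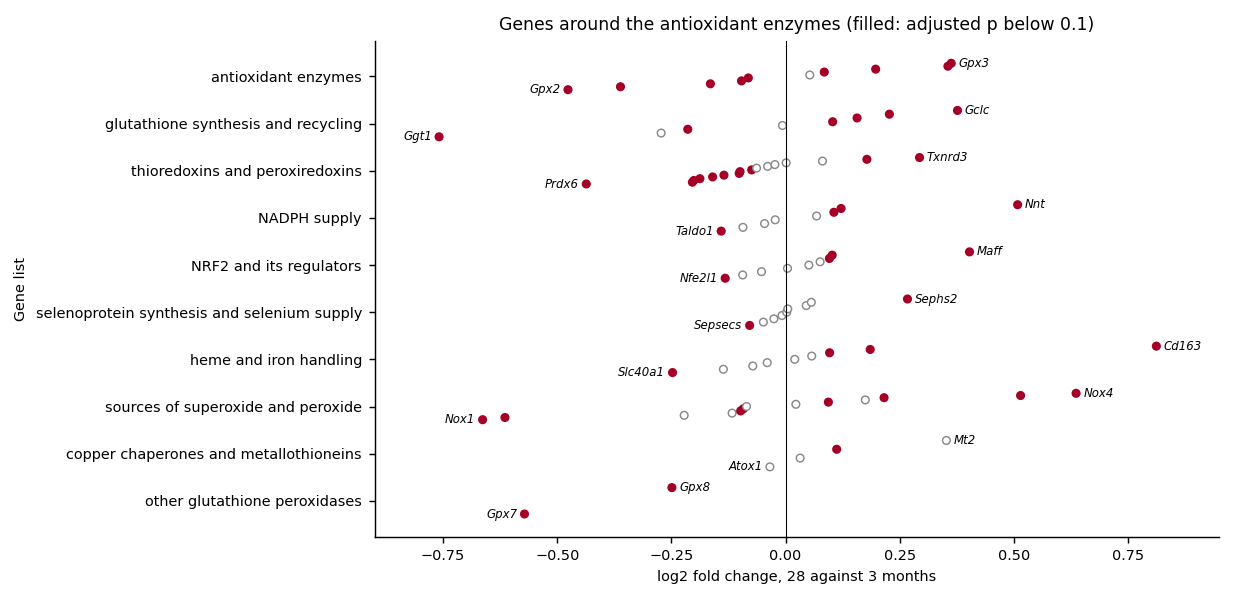
Log2 fold change at 28 against 3 months of the antioxidant enzymes and of 9 lists of neighbouring genes, one circle per gene, filled for an edgeR adjusted p below 0.1, with the lowest and the highest gene of each list named. *Nnt* and *Nox4* had a mean below 1 CPM. Filled circles of the antioxidant enzymes lie on both sides (5 lower, 4 higher), and of those of the thioredoxins and peroxiredoxins 9 lie to the left and 2 to the right.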

How the data were processed

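The authors trimmed the reads with cutadapt 2.8, aligned them to GRCm38 with HISAT2 2.1.0, kept uniquely mapped reads with SAMtools 1.9 and counted properly mapped pairs per gene by strand with featureCounts (Subread 2.0.1). The deposited values are raw counts, neither normalized nor pooled over mice. Symbols, positions and exon lengths came from GENCODE for GRCm38, which matched 37652 of 37764 genes. The GRCm38 reference of the authors was of a later Ensembl release, so TPM divides counts from one annotation by lengths from another. In edgeR 4.0.16 (R 4.3.3), filterByExpr by age kept 18325 genes, counts were normalized by TMM, and age group and library batch were fitted over all 83 mice, with Benjamini-Hochberg adjustment within each comparison and a threshold of 0.1, as in the study, which used DESeq2. The SE of a log2 fold change was computed from the edgeR test, as its absolute value divided by the square root of the F statistic. The 95% interval was taken from that SE, assuming a normal spread. Scores and CPM on the log scale used a prior count of 2. On counts simulated for 28 against 3 months over 18249 genes, 28 of 50 genes changed by 0.2 and 47 of 50 changed by 0.5 (log2) were recovered, and 25 of 183 calls were of unchanged genes. Alternatives were DESeq2 1.42.0, its size factors, a count minimum of 10, no batch term, marker scores as covariates, leaving out each mouse and leaving out the 6 libraries with a smooth muscle score below 8 or an epithelium score below 10. Python 3.11.15 was used for levels and plots. The members were named by symbol. Of the neighbouring lists, at most 3 rises and 3 falls per list are named among called genes that averaged 1 CPM or more and moved 1 way in all 3 batches, with *Nfe2l2*, *Keap1*, *Gsr*, *Ccs* and *Selenop* always named. The members and lists were chosen with earlier results of these data known. Same-numbered mice of different ages share only a number.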

Additional observations from a re-analysis of the deposited data

How the results depend on the processing

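Apart from the covariate fits below, 6 to 9 members were called from 3 to 28 months, 6 to 8 at any age and 35 to 42 neighbouring genes. The counts of the other comparisons changed as follows. From 3 to 9 months 1 member was called with the fibroblast, macrophage, endothelium and goblet cell scores as covariates, chosen after seeing the data. In the same fit 0 were called from 15 to 24 and from 24 to 28 months, 4 from 3 to 28 months, 3 at any age and 0 for departure from a straight line, and 27 neighbouring genes in place of 42. Over all genes this fit changed the calls from 1593 to 3707 (3 to 9 months), 2476 to 74 (15 to 24), 2139 to 911 (24 to 28), 9046 to 4527 (3 to 28), 10069 to 5784 (any age) and 2969 to 1703 (departure from a straight line). From 9 to 15 months 1 was called with DESeq2, with DESeq2's size factors, with at least 10 counts in every mouse and with the epithelium, smooth muscle and adipocyte scores as covariates, beside 117, 81, 58 and 312 calls over all genes in place of 79. Departure from a straight line was called for 2 members with at least 10 counts, DESeq2's size factors or without the 6 libraries that stood apart (also chosen after seeing the data), beside 2844, 3006 and 3493 calls over all genes, and for 3 with the epithelium, smooth muscle and adipocyte scores, beside 4570. The cause of these shifts was not tested. Leaving out 1 mouse at a time gave 0 calls from 3 to 9 months, 0 to 1 from 9 to 15, 3 from 15 to 24, 1 to 2 from 24 to 28 (2 without 28 months replicate 14, where *Nqo1* was added) and 7 to 9 from 3 to 28 months. Calls over all genes were not counted in the fits without 1 mouse.

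Between 15 and 24 months the sign turned for members that were not called. *Gpx1* was at 0.0772 and 0.00494 in batches 1 and 2, *Gpx4* at -0.168 in batch 3, *Sod2* at 0.0111 and *Hmox1* at 0.0206 in batch 1, *Nqo1* at -0.000452 in batch 3, and *Cat* at -0.0143 in batch 2 and -0.0456 with the 4 added scores. *Sod1* was at 0.0999 and 0.0124 in batches 1 and 2 and at 0.00248 without the batch term and 0.00812 without the 6 libraries. Without 1 mouse at a time, *Gpx4* lay between -0.00575 and 0.0445 and *Sod1* between -0.0276 and 0.0047.

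The replicate numbers do not pair the mice: over 161 pairs of same-numbered mice of different ages the median correlation of their deviations was 0.01, and the lowest was -0.31. With the replicate number as a replicate block the calls were 0, 0, 3 and 1 in the 4 intervals and 8 between 3 and 28 months, where *Gpx1* was lost (edgeR adjusted p = 0.145). Over all 18325 genes the calls in that fit were, in the same order, 1507, 61, 2131, 1780 and 8626. Each member had at least 115 counts in every mouse.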

Other observations

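Since *Hmox1* is inducible, 8 genes of the acute stress response were read after its values were seen. Across the 83 mice, with age and batch removed, *Jun* alone was correlated with it (Pearson's r = 0.34, Spearman's rho = 0.31, Benjamini-Hochberg adjusted permutation p = 0.0159 for r, r = 0.35 without the 2 mice farthest from the median), and the adjusted permutation p of the others was at least 0.322. *Hspa1a*, an inducible heat shock protein, had a median of 8.32 CPM and a mean of 38.8 CPM (SD 54.8) at 3 months, and means between 5.40 and 9.54 CPM at the other ages. It fell from 3 to 28 months by 2.86 on the log2 scale (SE 0.37, edgeR adjusted p = 1.08e-09). The median of *Hspa1a* at 28 months was 4.68 CPM, and its highest value at 3 months was 186 CPM. *Hspa1b*, *Dnajb1* and *Egr1* also fell, by 2.49, 0.33 and 0.29 (SE 0.38, 0.08 and 0.14, edgeR adjusted p = 1.51e-07, 0.000593 and 0.0848). The median of *Hspa1b* was 22.1 CPM at 3 months, where its mean was 85.2 CPM (SD 113), and 13.1 CPM at 28 months. The other 4 were not called, with *Hspb1* at 0.16, *Jun* at 0.08, *Atf3* at 0.01 and *Fos* at -0.09 (edgeR adjusted p between 0.323 and 0.952). Calls in 4 of these 8 genes stood beside 49.4% of all genes called between the same ages.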
